A study of Mus musculus with 6 samples.

Results

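The Kruppel-like factors examined here were the 10 family genes Klf2, Klf3, Klf4, Klf5, Klf6, Klf7, Klf9, Klf10, Klf12 and Klf13, taken by their gene symbols from the 18295 genes that the array measured. The array held 17 genes of the family in all. The 10 members had 21 probes, and each gene was represented by its brightest probe unless another is named. The samples were 3 mouse induced pluripotent stem (iPS) lines, iPS1, iPS4 and iPS5, each set against 1 RNA pool from embryonic stem (ES) cells. The iPS lines came from fibroblasts of OG2 mouse embryos, in which a green fluorescent protein reports Oct4 activity, and each was grown from a fluorescent colony picked at day 12. Those fibroblasts had received pMX retroviruses carrying 16 genes, namely Oct4, Sox2, Klf4 and c-Myc together with 12 TFIID subunits (TBP with TAF13, TAF12, TAF11, TAF10, TAF9, TAF7, TAF6, TAF5, TAF4b, TAF4 and TAF3). The ES cells were OG2 cells, for which the growth protocol names no transduction. Both cell types grew on irradiated embryonic fibroblast feeders in medium with LIF, so fibroblast RNA could enter every sample. Each line had 2 arrays with the dyes exchanged, and whether a line's arrays carried separate RNA is not stated in the labels. Klf4 was one of the transduced genes, and its probe was not placed on the transcript, so vector-derived and genomic Klf4 RNA cannot be told apart.

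Kruppel-like factors are zinc-finger proteins that bind CACCC elements and GC-rich boxes through a conserved DNA-binding domain at the carboxyl end. Outside that domain they differ, and some members activate transcription while others recruit the CtBP or Sin3 corepressors. In mouse ES cells Klf2, Klf4 and Klf5 help to maintain self-renewal, LIF acting through Stat3 raises Klf4 and Klf5, and Klf4 is a classical reprogramming factor.

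The promoters of the members called in the F test among the lines described below are shown first, because the family itself binds CACCC and GC elements. RefSeq sequence of build GRCm38.p6 was found for 8 of the 10 members, not for Klf5 or Klf10, with 250 bases before and 50 bases after the start of the gene. Each is written 5′ to 3′ on the strand of the gene, and capitals mark CACCC or its reverse complement GGGTG.
Klf2, chr8:72318812-72319111, plus strand: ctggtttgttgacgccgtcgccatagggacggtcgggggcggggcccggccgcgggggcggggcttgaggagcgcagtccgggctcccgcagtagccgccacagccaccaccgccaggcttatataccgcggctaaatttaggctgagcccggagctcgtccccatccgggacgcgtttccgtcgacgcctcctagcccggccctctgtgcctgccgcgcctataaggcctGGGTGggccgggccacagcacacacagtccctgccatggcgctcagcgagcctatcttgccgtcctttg
Klf3, chr5:64803271-64803570, plus strand: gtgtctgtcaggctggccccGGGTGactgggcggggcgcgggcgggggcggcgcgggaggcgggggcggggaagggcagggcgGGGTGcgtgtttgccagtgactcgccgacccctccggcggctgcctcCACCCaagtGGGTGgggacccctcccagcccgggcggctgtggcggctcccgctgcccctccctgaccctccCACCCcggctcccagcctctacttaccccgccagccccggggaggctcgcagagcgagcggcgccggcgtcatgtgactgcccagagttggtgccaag
Klf4, chr4:55532426-55532725, minus strand: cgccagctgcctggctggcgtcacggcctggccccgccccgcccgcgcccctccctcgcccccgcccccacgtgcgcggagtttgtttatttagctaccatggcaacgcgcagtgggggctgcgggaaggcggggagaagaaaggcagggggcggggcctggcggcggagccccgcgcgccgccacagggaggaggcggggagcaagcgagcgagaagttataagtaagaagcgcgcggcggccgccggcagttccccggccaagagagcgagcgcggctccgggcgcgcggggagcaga
Klf6, chr13:5861239-5861538, plus strand: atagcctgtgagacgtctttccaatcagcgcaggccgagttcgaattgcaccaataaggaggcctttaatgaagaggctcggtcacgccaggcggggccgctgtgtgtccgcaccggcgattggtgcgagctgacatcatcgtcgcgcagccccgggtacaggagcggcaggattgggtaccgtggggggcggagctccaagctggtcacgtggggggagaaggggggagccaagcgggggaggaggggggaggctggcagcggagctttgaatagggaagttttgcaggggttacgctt
Klf7, chr1:64121340-64121639, minus strand: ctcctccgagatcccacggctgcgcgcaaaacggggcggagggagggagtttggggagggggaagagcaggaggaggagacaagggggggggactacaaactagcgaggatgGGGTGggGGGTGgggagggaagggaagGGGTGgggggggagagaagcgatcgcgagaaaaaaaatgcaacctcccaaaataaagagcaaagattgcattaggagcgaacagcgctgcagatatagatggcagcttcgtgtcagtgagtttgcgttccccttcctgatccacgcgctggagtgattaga
Klf9, chr19:23140976-23141275, plus strand: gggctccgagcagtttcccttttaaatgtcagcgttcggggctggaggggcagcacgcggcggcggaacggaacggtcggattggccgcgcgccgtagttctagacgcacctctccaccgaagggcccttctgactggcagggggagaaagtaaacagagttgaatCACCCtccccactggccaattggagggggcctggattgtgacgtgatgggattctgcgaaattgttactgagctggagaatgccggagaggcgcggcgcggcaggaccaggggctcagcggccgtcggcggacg
The Klf3 promoter held 5 CACCC matches and 6 matches to the GC box GGGCGG, counting both strands. The Klf4 promoter held 0 CACCC and 4 GC boxes. Klf2 had 1 and 2 of these, Klf6 had 0 and 1, Klf7 had 3 and 1, and Klf9 had 1 and 0. Of the 8 promoters, 6 held CACCC and 6 held GGGCGG, against 56.7% and 35.9% of 27025 promoters of the same length. The Stat-type element TTCNNNGAA, which reads the same on both strands, was present in 1 of the 8 promoters, that of Klf9, and in 8.5% of all promoters. These matches describe the letters of the window and were not tested for binding.

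Across the 3 lines some members differed between lines, some lay below the ES pool in each line, and Klf6 and Klf9 did both. By the log2 ratios of their brightest probes, Klf4, Klf5, Klf3 and Klf2 were lowest in iPS1, intermediate in iPS4 and highest in iPS5. For Klf2 the difference between iPS4 and iPS5 was not called, and its iPS channel was brighter in iPS4 than in iPS5. Klf6 and Klf9 were lower than the pool in all 3 lines, and no member was called higher than the pool over the lines. Tests were limma's moderated tests on log2 ratios of iPS over ES, with Benjamini-Hochberg adjustment over all 41174 gene probes, and a gene was called at an adjusted p under 0.05. Against the pool, with the 3 lines as replicates, 2 of the 10 members were called, where 10.2% of all genes were. Both were lower, where 4.95% of all genes were, and 0 were higher, where 5.21% of all genes were. At an unadjusted p under 0.05, 5 members passed, where 34.2% of all genes did, namely Klf6, Klf9 and Klf10 with negative means and Klf12 and Klf13 with positive means. In the F test among the 3 lines, 7 of the 10 members were called, where 25.2% of all genes were. Of the 7 other family genes measured, 2 were called. The 10 members were chosen with earlier results of these data known, so their shares beside those of all genes are a description. The F test takes its spread from the duplicate arrays within each line, which may reflect technical error alone. The range between the highest and the lowest line had a median of 0.42 on the log2 scale over the 10 members and 0.15 over all genes. On that measure Klf5 stood at percentile 99.9 of all genes, Klf4 at 99.7, Klf3 at 98.7 and Klf2 at 97, while Klf13 stood at 9.5.

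**Figure D1:**
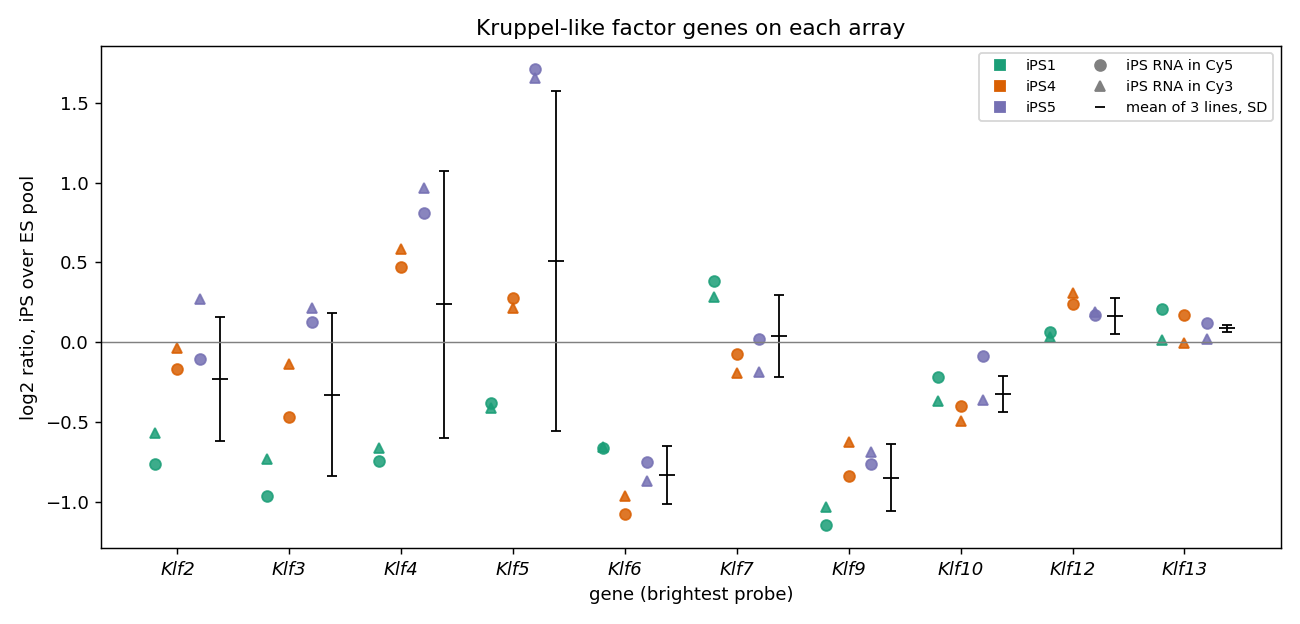
Log2 ratio of iPS over ES pool for the brightest probe of each of the 10 genes on all 6 arrays, coloured by line, with circles for iPS RNA in Cy5 and triangles for Cy3; the bar beside each gene is the mean of the 3 lines with its SD. The points of Klf4 and Klf5 lie apart by line, from -0.74 to 0.97 and from -0.41 to 1.71, while those of Klf6 and Klf9 are all below 0.

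Klf5, which supports ES self-renewal and blastocyst development, had the smallest F-test p of the members. Its log2 ratios were -0.38 and -0.41 on the arrays of iPS1, 0.28 and 0.21 on those of iPS4, and 1.65 and 1.71 on those of iPS5. The arrays of a line lay close together, the lines did not overlap, and iPS5 stood far above the others. Klf5 was 3.21-fold higher in iPS5 than in the pool (log2 1.68 ± 0.037 SE, adjusted p = 2.6e-06). It was 4.22-fold higher in iPS5 than in iPS1 (adjusted p = 2.65e-05) and 2.70-fold higher than in iPS4 (adjusted p = 7.29e-05). Klf5 in iPS1 was called below the pool (log2 -0.39, adjusted p = 0.000193) and in iPS4 above it (0.25, adjusted p = 0.00168). Its other probes were called above the pool in iPS1, at 0.19 (adjusted p = 0.0131) and 0.58 (adjusted p = 0.000327). Taken over the lines the mean of the brightest probe was 0.51 ± 1.06 (SD, n = 3), which was not called (adjusted p = 0.529). In bulk RNA, fewer cells that express a gene and less RNA of it in each cell cannot be told apart, which holds for all genes here.

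The channel intensities showed the same pattern on the iPS side. The normalized log2 intensity of Klf5 in the ES channel was 10.04 on both iPS1 arrays, 9.99 and 10.00 on the iPS4 arrays, and 10.17 and 10.34 on the iPS5 arrays. In the iPS channel it was 9.66 and 9.63 in iPS1, 10.27 and 10.21 in iPS4, and 11.82 and 12.05 in iPS5. The ES values thus spanned a narrow range in which the iPS4 values also fell, and iPS1 lay below that range and iPS5 above it.

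Klf4, the transduced factor, followed the same order with 1 probe. Its log2 ratios were -0.74 and -0.66 in iPS1, 0.47 and 0.58 in iPS4, and 0.97 and 0.81 in iPS5. Both arrays of iPS1 were below the pool and all 4 arrays of the other lines were above it, with no overlap between lines. In iPS1 Klf4 was 1.63-fold lower than in the pool (log2 -0.70 ± 0.0375 SE, adjusted p = 2.19e-05). It was 1.44-fold higher than the pool in iPS4 (adjusted p = 6.17e-05) and 1.85-fold higher in iPS5 (adjusted p = 1.99e-05). Klf4 in iPS1 was 2.34-fold below iPS4 (adjusted p = 0.000107) and 3.01-fold below iPS5 (adjusted p = 3.61e-05). The difference between iPS4 and iPS5 was smaller (log2 -0.36 ± 0.053 SE, adjusted p = 0.00894). The 3 lines averaged 0.24 ± 0.833 (SD, n = 3), which was not called (adjusted p = 0.722). The ES channel averaged 8.98 ± 0.0564 (SD over the 6 arrays) in log2 intensity, and the iPS channel ran from 8.24 to 9.95.

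Klf2 supports ground-state pluripotency and is held down by ERK signalling. By its brightest probe, Klf2 was called below the pool in iPS1, with no call in iPS4 or iPS5 (adjusted p = 0.168 and 0.380). Its log2 ratios were -0.76 and -0.57 in iPS1, -0.17 and -0.04 in iPS4, and 0.27 and -0.11 in iPS5. The iPS1 arrays lay below the other 4, and the arrays of iPS4 and iPS5 overlapped. The normalized log2 intensity of its iPS channel averaged 11.88 in iPS1, 12.53 in iPS4 and 12.12 in iPS5, highest in iPS4. Its ES channel was lower on the iPS5 arrays, at 12.036 and 12.035, than on the other arrays, at 12.463 to 12.655. Klf2 in iPS1 was 1.59-fold below the pool (log2 -0.67 ± 0.050 SE, adjusted p = 7.82e-05). It differed from iPS4 by -0.56 (adjusted p = 0.00479) and from iPS5 by -0.75 (adjusted p = 0.000793), while iPS4 and iPS5 differed by -0.18 ± 0.070 SE (adjusted p = 0.161). Its second probe had line values of -0.28, -0.18 and -0.05 in the same order, with an F-test adjusted p of 0.0619. Klf2 also carried a called dye effect of -0.12 (adjusted p = 0.0335). Of the 10 members, 2 had a called dye effect, Klf2 and Klf3, where 24.4% of all genes had one.

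**Figure D2:**
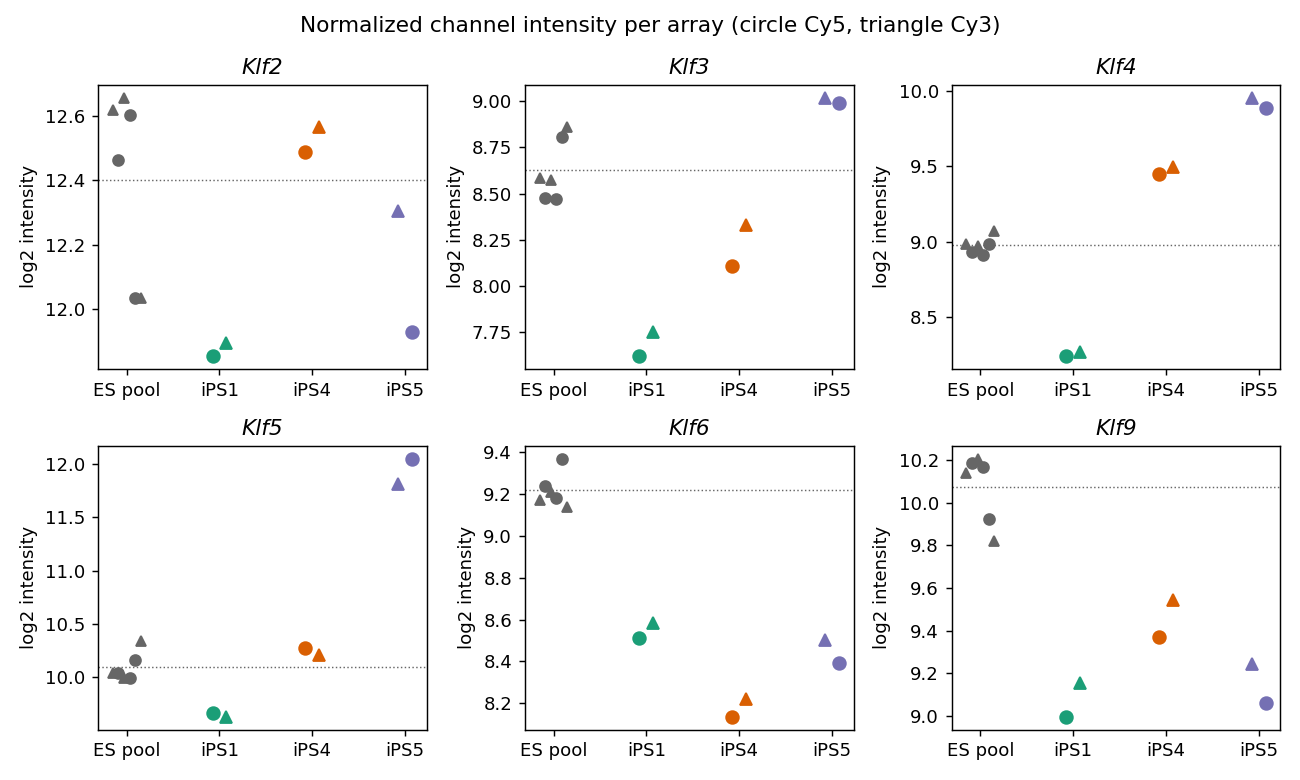
Normalized log2 intensity of the ES and iPS channels for 6 genes on the 6 arrays, circles for Cy5 and triangles for Cy3, with the ES mean as a dotted line and a separate vertical scale in each panel. The iPS5 points of Klf5, at 11.82 and 12.05, lie above all ES points, and all iPS points of Klf6 and Klf9 lie below all ES points.

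Klf3 and Klf12 are repressors that recruit CtBP. Klf3 gave log2 ratios of -0.96 and -0.73 in iPS1, -0.47 and -0.14 in iPS4, and 0.21 and 0.13 in iPS5. The lines did not overlap, and the arrays of iPS5 alone were above the pool. All 3 differences between lines were called, at -0.54 for iPS1 minus iPS4 (adjusted p = 0.00513), -1.01 for iPS1 minus iPS5 (adjusted p = 0.000228) and -0.47 for iPS4 minus iPS5 (adjusted p = 0.00894). Against the pool the mean of the lines was -0.33 ± 0.508 (SD, n = 3, adjusted p = 0.403). The probes of Klf3 disagreed. The second had line values of 0.05, 0.39 and 0.25, highest in iPS4 (F-test adjusted p = 0.013). It was called above the pool in iPS4 (adjusted p = 0.000235) and in iPS5 (adjusted p = 0.00363). The third was above background in the iPS channel of 2 arrays and the ES channel of 1. Averaged over its probes, Klf3 in iPS4 was 0.05 rather than -0.30.

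Klf12 showed small positive ratios, at 0.06 and 0.03 in iPS1, 0.24 and 0.31 in iPS4, and 0.19 and 0.17 in iPS5. The arrays of iPS1 were the lowest, and those of iPS4 the highest. It was called higher than the pool in iPS4 (log2 0.27, adjusted p = 0.00137) and in iPS5 (0.18, adjusted p = 0.0176), but neither over the lines (0.17 ± 0.114 SD, n = 3, adjusted p = 0.145) nor in the F test (adjusted p = 0.0619). Its other 2 probes, both dim, had line values of -0.11, 0.08 and 0.03 and of 0.04, -0.03 and -0.02, with no call. Averaged over the probes, its value in iPS5 was 0.064 and was not called (adjusted p = 0.204). Klf12 is the neighbour of Klf5 on chromosome 14, with 0 protein-coding genes between them in the GRCm38.p6 gene table.

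Klf9, Klf10 and Klf13 are repressors that recruit Sin3. Klf9, which thyroid hormone and glucocorticoids induce in many tissues, gave log2 ratios of -1.14 and -1.03 in iPS1, -0.84 and -0.62 in iPS4, and -0.68 and -0.76 in iPS5. Every array was below the pool, and the iPS1 arrays were the lowest. Over the lines Klf9 was at 0.556 of the pool's level (log2 -0.85 ± 0.209 SD, n = 3, adjusted p = 0.0304). Klf9 in iPS1 was below iPS4 by 0.36 on the log2 scale (difference -0.36, adjusted p = 0.0124) and differed from iPS5 by -0.37 (adjusted p = 0.00598). The difference between iPS4 and iPS5 was -0.01 ± 0.058 SE (adjusted p = 0.956). Its second probe was also called lower over the lines (-0.78 ± 0.199 SD, n = 3, adjusted p = 0.0317).

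Klf10, induced early by TGF-beta, gave -0.22 and -0.37 in iPS1, -0.40 and -0.49 in iPS4, and -0.36 and -0.09 in iPS5. All 6 arrays were below the pool, with overlap between the lines. The mean of -0.32 ± 0.114 (SD, n = 3) narrowly missed the threshold (adjusted p = 0.0511), and it passed with the log2 ratios that the authors deposited (adjusted p = 0.0422). It also passed under each other background correction, normalization or choice of probes (adjusted p = 0.0275 to 0.04875). Without the line iPS1 or iPS4 it did not pass (adjusted p = 0.141 and 0.229). In the authors' deposited table its p was 0.0432. Klf6, Klf9 and Klf10 were the 3 members below 0 on all 6 arrays, where 15.3% of all genes were. Klf13, which regulates chemokine genes in lymphocytes, gave 0.21 and 0.02 in iPS1, 0.17 and -0.01 in iPS4, and 0.02 and 0.12 in iPS5. 5 of the 6 arrays were slightly above the pool and the lines overlapped, with a mean of 0.09 ± 0.0226 (SD, n = 3, adjusted p = 0.144). Its second probe had the opposite sign (-0.12 ± 0.0825 SD, n = 3, adjusted p = 0.178).

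Klf6 and Klf7 are closely related activators. Klf6, an early-response gene of many tissues, gave -0.66 on both iPS1 arrays, -1.07 and -0.96 in iPS4, and -0.87 and -0.75 in iPS5. All arrays were below the pool, and iPS1 was the least reduced. Over the lines it was at 0.563 of the pool's level (log2 -0.83 ± 0.18 SD, n = 3, adjusted p = 0.0276). The difference between iPS1 and iPS4 was called (0.36, adjusted p = 0.0219), and those with iPS5 were not (adjusted p = 0.203 and 0.106). The second probe of Klf6 was also called lower (-0.75 ± 0.252 SD, n = 3, adjusted p = 0.0417), but there the line nearest to the pool was iPS5 at -0.46, with iPS1 at -0.86 and iPS4 at -0.93.

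The calls of Klf6 and Klf9 against the pool rested on few samples. Without iPS5 replicate 1 the adjusted p was 0.0513 for Klf6 and 0.0510 for Klf9, without the line iPS1 it was 0.0668 and 0.0629, without the line iPS4 it was 0.201 and 0.207, and with the ES pool counted as 1 sample it was 0.365 and 0.390. The 2 calls then became 0 in each case.

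Klf7, known for its role in neurons, was called above the pool in iPS1 alone among the lines. Its log2 ratios were 0.38 and 0.28 in iPS1, -0.07 and -0.19 in iPS4, and -0.19 and 0.02 in iPS5. The iPS1 arrays stood above the other 4, which overlapped. Klf7 in iPS1 was 1.26-fold above the pool (log2 0.33 ± 0.040 SE, adjusted p = 0.000604), and it exceeded iPS4 by 0.46 (adjusted p = 0.00418) and iPS5 by 0.41 (adjusted p = 0.00322). Its second probe had line values of 0.07, -0.13 and -0.07 and was not called (F-test adjusted p = 0.0736).

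By line, iPS1 had 1 member called higher than the pool (Klf7) and 7 called lower (Klf2, Klf3, Klf4, Klf5, Klf6, Klf9 and Klf10), where 21.5% and 21.2% of all genes were (42.7% in either direction). The Klf5 call there came from its brightest probe, and its other probes were called higher in iPS1. In iPS4, 3 were called higher (Klf4, Klf5 and Klf12) and 5 lower (Klf3, Klf6, Klf7, Klf9 and Klf10), where 20.6% and 23.2% of all genes were (43.7% in either direction). The Klf3 call in iPS4 came from its brightest probe, and its second probe was called higher there (0.39, adjusted p = 0.000235). In iPS5, 3 were higher (Klf4, Klf5 and Klf12) and 3 lower (Klf6, Klf9 and Klf10), where 13.9% and 13% of all genes were (27% in either direction). The median log2 ratio of the members was -0.53 in iPS1, -0.12 in iPS4 and 0.075 in iPS5, while the median over all genes was -0.0076, -0.0092 and -0.0002. The 3 line comparisons share the ES pool. Some of these calls were lost when 1 array was left out. Without iPS4 replicate 1, Klf3 and Klf5 lost theirs in iPS4 (adjusted p = 0.0979 and 0.0579), and without iPS4 replicate 2 Klf12 did (0.0654). In iPS5 the call of Klf12 was lost without either array (adjusted p = 0.0615 and 0.0508) and that of Klf10 without replicate 1 (0.126). Klf10 lost its call in iPS1 without iPS1 replicate 1 (adjusted p = 0.0712), and Klf7 lost its call in iPS4 when any array of iPS1 or iPS4 was left out (0.0689 to 0.371).

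Between lines the pool cancels. The difference between iPS1 and iPS4 was called for 7 members, where 12% of all genes were, between iPS1 and iPS5 for 6, where 23% were, and between iPS4 and iPS5 for 3, where 13.3% were. Klf2, Klf3, Klf4, Klf5 and Klf9 were called by the F test. Their log2 ratios lay in the order iPS1, iPS4, iPS5 from lowest to highest. Both held for 6.55% of all genes. Klf3, Klf4 and Klf5 differed in that order in all 3 pairs of lines, as 0.918% of all genes did. Klf9 takes that order from a difference between iPS4 and iPS5 that was near 0, was not called, and turned positive with offset 0, plain subtraction, the authors' ratios or a common spread, and without iPS4 replicate 1 or iPS5 replicate 2. Averaged over its probes, Klf3 lost the call between iPS4 and iPS5 (difference -0.108, adjusted p = 0.168). The F calls of Klf2, Klf3, Klf4 and Klf5 were kept when any 1 array was left out. Leaving out an iPS5 array lowered the adjusted p of these genes, although data were removed. A call kept in such a fit is therefore weak support. Those of Klf6, Klf7 and Klf9 were lost without iPS1 replicate 2 (adjusted p = 0.142, 0.0569 and 0.103), leaving 4 of the 7 calls. Klf6 also lost its call without iPS1 replicate 1 (0.135) or iPS4 replicate 1 (0.165), and Klf9 without iPS1 replicate 1 (0.0842), both as adjusted p. Of the pair differences, those of Klf5 were kept when any 1 array was left out. Klf4 lost the call between iPS4 and iPS5 without either iPS4 array (adjusted p = 0.0780 and 0.109), and Klf3 without iPS4 replicate 1 (0.0798). Between iPS1 and iPS4, Klf2 lost its call without either iPS1 array or iPS4 replicate 1 (adjusted p = 0.0545, 0.0823 and 0.0576). Klf3 did so without either iPS1 array or iPS4 replicate 2 (adjusted p = 0.0717, 0.0746 and 0.0520). In the same comparison Klf6 and Klf9 lost their calls when any array of iPS1 or iPS4 was left out (adjusted p = 0.0532 to 0.216 and 0.0630 to 0.155), and Klf7 without iPS1 replicate 2 or iPS4 replicate 1 (0.0796 and 0.0588). Between iPS1 and iPS5, Klf9 lost its call without either iPS1 array (adjusted p = 0.0671 and 0.0726). With normexp offset 0 in place of 50, 0 members passed the F test, and Klf4 and Klf5 had an adjusted p of 0.0674. Klf2 also lost its F call with plain subtraction, median centring and no dye term (adjusted p = 0.0673, 0.0665 and 0.083). So did Klf6, Klf7 and Klf9 in each of these settings. Klf3 lost its F call with median centring (adjusted p = 0.0810), while Klf4 and Klf5 kept theirs in these settings.

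**Figure D3:**
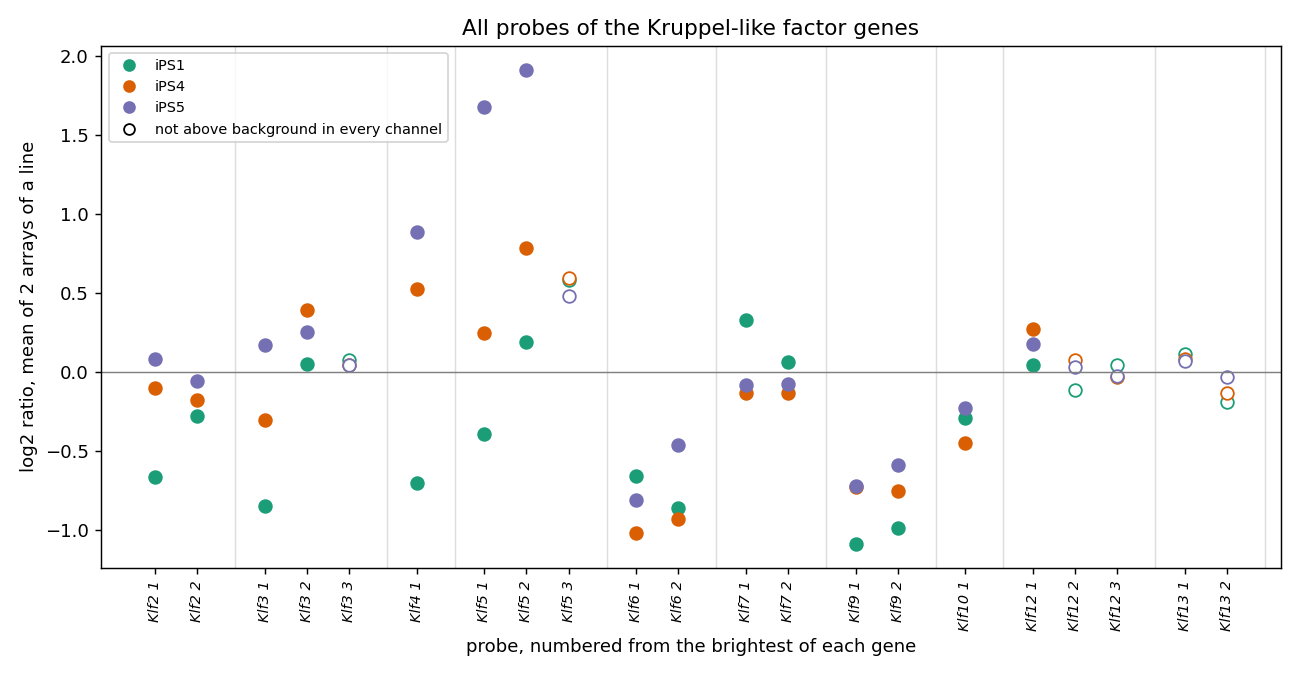
Mean log2 ratio of each line for the 21 probes of the 10 genes, numbered from the brightest within a gene, with open symbols where not every channel was above background. The first 2 Klf5 probes lie in the same line order, at -0.39, 0.25 and 1.68 and at 0.19, 0.79 and 1.92, and the dimmest Klf5 probe shows the lines close together.

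Of the 21 probes, 15 were above background in both channels of all 6 arrays. Against the pool 5 probes were called, where 7.68% of all probes were, and in the F test 11 were, where 20% were. The 5 were the 2 probes of Klf6, the 2 of Klf9 and the dimmest of Klf5. For Klf5 the second probe kept the line order with values of 0.19, 0.79 and 1.92 (F-test adjusted p = 6.24e-05), but placed iPS1 above the pool. The dimmest Klf5 probe had line values of 0.58, 0.60 and 0.48, with no call in the F test (adjusted p = 0.582) and a called mean of 0.55 ± 0.064 (SD, n = 3, adjusted p = 0.0201). Its ES channel was above background on 4 of 6 arrays. In the authors' deposited table the log2 ratio was 0.633 for this probe, -0.855 and -0.781 for Klf6, and -0.895 and -0.798 for Klf9, each with a p of 0. That table gave Klf4 a log2 ratio of 0.228 and the brightest Klf5 probe 0.512, both with a p of 1.

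The gene whose 6 log2 ratios lay nearest to those of Klf5 was Tbx3, a T-box factor of naive ES cells, at a Euclidean distance of 0.334 among 14348 candidate genes. Its line values were -0.38, 0.44 and 1.63, close to the -0.39, 0.25 and 1.68 of Klf5. Next came Aard (distance 0.608) and Apobec2 (distance 0.819), both also highest in iPS5. The likeness is a description over 6 arrays that share the pool.

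Genes that Klf2, Klf4 and Klf5 bind or regulate in ES cells were measured in 10 cases. Over the lines 2 were called higher than the pool and 0 lower, and their median log2 ratio was 0.04. The 2 were Nanog, a core pluripotency factor (0.65 ± 0.131 SD, n = 3, adjusted p = 0.0264), and Sall4 (0.65 ± 0.0190 SD, n = 3, adjusted p = 0.0201). In the F test 8 of the 10 were called, where 25.2% of all genes were. Of the 8, 5 lay in the order from iPS1 up to iPS5 and 2 in the reverse order. An F call with the rising order held for 6.55% of all genes. The 5 were Tbx3, Tcl1, Lefty1, Esrrb and Pou5f1. Esrrb, an orphan nuclear receptor of the naive network, had line values of -0.73, 0.13 and 0.44, and Pou5f1 (Oct4, also transduced) had -0.51, 0.24 and 0.66. The 2 in reverse were Mycn and Fbxo15. By line the median of the 10 was -0.32 in iPS1, 0.18 in iPS4 and 0.27 in iPS5. For this list and those below, the share of all genes called against the pool was 10.2%. The share with an unadjusted p under 0.05 was 34.2%, and that of F calls was 25.2%.

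**Figure D4:**
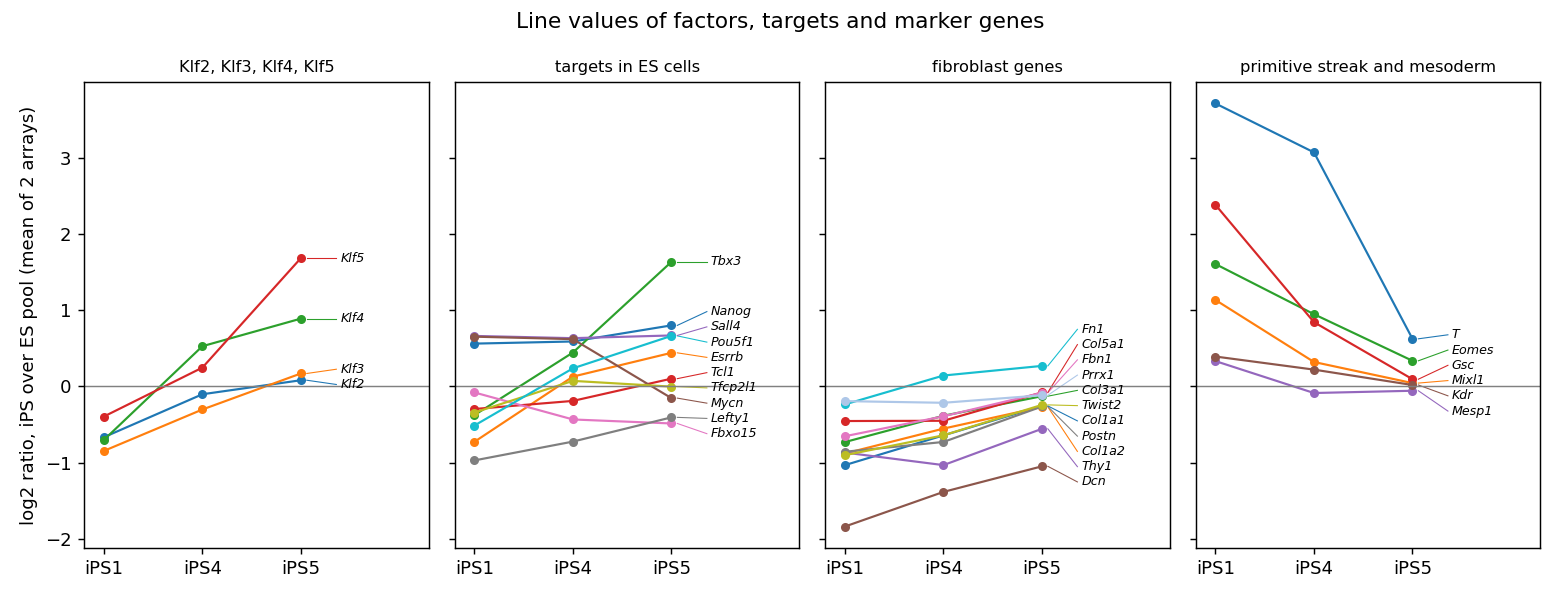
Mean log2 ratio of iPS over ES pool by line (2 arrays each) for Klf2, Klf3, Klf4 and Klf5, for genes that the family binds or regulates in ES cells, for fibroblast genes and for primitive streak and mesoderm genes, on 1 shared vertical scale; lines join the values of a gene. Tbx3 ends at 1.63 beside Klf5 at 1.68, and T, at 3.71 in iPS1 and 0.62 in iPS5, runs the other way.

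Of the signals upstream of the family, 9 of 10 listed genes were measured, with 2 called higher, 2 lower and a median log2 ratio of -0.03. Il6st, the gp130 subunit of the LIF receptor, was higher at 0.64 ± 0.122 (SD, n = 3, adjusted p = 0.025), and Socs3, a Stat3 target that damps the pathway, at 0.48 ± 0.0835 (adjusted p = 0.0256). The ERK pathway kinases Map2k1 (-0.27, adjusted p = 0.0499) and Mapk3 (-0.27, adjusted p = 0.0322) were lower. Lifr and Stat3 had means of 0.04 (adjusted p = 0.413) and -0.03 (adjusted p = 0.637).

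Corepressors, acetyltransferases and ubiquitin ligases that act with the family were measured in 10 of 11 cases, with 2 higher, 1 lower and a median of 0.09. Ctbp2, a corepressor of Klf3 and Klf12, was higher (0.37 ± 0.118 SD, n = 3, adjusted p = 0.0431), as was Fbxw7, a ligase subunit that marks Klf5 for degradation in human cells (0.44 ± 0.0647 SD, n = 3, adjusted p = 0.0248). Sin3b, a corepressor scaffold, was lower (-0.62 ± 0.0381 SD, n = 3, adjusted p = 0.0201). In the F test 4 of the 10 were called, where 25.2% of all genes were.

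The other 7 Kruppel-like factors on the array had 0 calls against the pool, 3 at an unadjusted p under 0.05 and 2 calls in the F test, Klf8 and Klf15. The shares of all genes on these measures were 10.2%, 34.2% and 25.2%. Klf8 averaged 0.37 (adjusted p = 0.0513) and Klf15 -0.49 (adjusted p = 0.0559). The related Sp factors were measured in 7 of 9 cases, with 0 calls against the pool, 4 at an unadjusted p under 0.05 and 2 calls in the F test, Sp5 and Sp3. Sp5, a Wnt target, had line values of 3.37, 2.85 and 0.57, the reverse of the order of Klf5. Its ES channel was above background on 3 arrays.

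Markers of other cells differed between the lines, in different orders. The fibroblast list of 11 genes, which stands for donor and feeder cells, had 10 F calls and 9 in the order from iPS1 up to iPS5. Of all genes, 25.2% had an F call and 6.55% had one in that order. In iPS1 11 of the 11 lay below the pool, in iPS4 10 and in iPS5 10, with medians of -0.86, -0.55 and -0.24. Its summed log2 level was 11.29 to 11.32 in iPS1, 11.6 to 11.62 in iPS4, 11.89 to 11.93 in iPS5 and 12.07 to 12.2 in the ES channel, and 0 of its genes were at background. Over the lines 2 were called lower, Thy1 at -0.82 and Dcn at -1.42. The primitive streak and mesoderm list of 6 genes ran the opposite way, with medians of 1.37, 0.58 and 0.07, 5 F calls, 4 of them in the falling order, and 0 calls against the pool, where 2 genes had an unadjusted p under 0.05. Its summed log2 level was 10.74 to 10.88 in iPS1, 10.11 to 10.12 in iPS4, 9.26 to 9.34 in iPS5 and 8.74 to 9.2 in the ES channel. In that list Mixl1 was above background in the iPS channel of 4 arrays and the ES channel of 2. Gsc was so in 4 and 3, which limits the ratios of both genes. The part of fibroblast and primitive streak cells in the values of Klf2, Klf3, Klf4 and Klf5 was not tested.

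Of the 9 genes that mark pluripotent cells, 1 was called higher (Nanog) and 3 lower (Zfp42, Tdgf1 and Fgf4) against the pool, and all 9 were above background in both channels of the 6 arrays. Its medians rose in the line order of Klf5, at -0.51, -0.34 and -0.07, with 6 F calls, 4 of them in that order. Zfp42 (Rex1) was the furthest below, at -2.74 ± 0.383 (SD, n = 3, adjusted p = 0.0201). The trophectoderm list of 7 had 0 higher and 3 lower, the keratins Krt8 (-1.20), Krt18 (-1.69) and Krt7 (-0.96), while its defining gene Cdx2 was above background in 2 of 6 arrays of either channel. It had 3 F calls, where 25.2% of all genes had one. Of these, Tfap2c went against the keratins in iPS1 and iPS4, with line values of 0.71, 0.36 and -0.65 (F-test adjusted p = 8.03e-05). Tfap2c was called above the pool in iPS1 and iPS4 and below it in iPS5. The primitive endoderm list of 6 had 0 calls against the pool, 0 at an unadjusted p under 0.05 and 4 in the F test. Its medians were -0.02 in iPS1, -0.31 in iPS4 and 0.23 in iPS5, with 4, 5 and 0 of its genes below the pool. In iPS5, where Klf4 and Klf5 were highest, Gata6 (0.62, adjusted p = 0.00077), Sox7 (0.47, adjusted p = 0.00111) and Pdgfra (0.33, adjusted p = 0.00141) were called above the pool. Gata4, Sox17 and Dab2 were not called there (0.09, 0.09 and 0.12). Sox7 was above background in the iPS channel of 3 arrays and the ES channel of 5, and Gata6 in 5 and 5. The part of trophectoderm or primitive endoderm cells in the family's values was not tested. Duplicate arrays correlated at r = 0.741 (iPS1), 0.766 (iPS4) and 0.656 (iPS5) over all probes, as a description, since probes share an array. The arrays of iPS5 had fewer probes above background, 47.44% to 65.69% per channel against 65.18% to 87.08% for the other lines, and for Klf12 and Klf13, the dimmest members, this limits what a difference between lines can show.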

How the data were processed

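RNA of 3 iPS lines and 1 ES pool was measured on 6 2-colour arrays, 2 of opposite dye per line. The authors deposited the raw scanner intensity per spot and channel, not normalized per the file headers. They also deposited log2 ratios per array, of unstated normalization, which served as an alternative, and a final table with a mean log2 ratio and a p-value per reporter from an unstated test. All fits used the raw intensities: normexp background correction (offset 50), loess within each array with control spots at no weight, and limma 3.58.1 with statmod 1.5.0 in R 4.3.3. Channel levels were taken after Aquantile scaling between arrays. Above background means over percentile 95 of a dim control with 604 spots per array. Against the pool, arrays of the same line were averaged and the 3 line means tested against 0, which leaves out any spread of the ES pool. Lines, their differences and the F test came from all 6 arrays with a dye term. Replicate numbers were given in accession order, and p-values from duplicate arrays measure only their spread, which may be technical. Of 41174 gene probes, 30365 carried a current symbol of the RefSeq gene table, 3726 were updated through a synonym, 95 did not match and 6988 had none. All 10 members were named, and from each background list those that passed the test described, with the 3 genes nearest to the member of the smallest F-test p. Members, lists and tests were chosen with earlier results of these data known. The fits were run on simulated data with known changes and independent noise. That run cannot show whether the spread of the duplicate arrays is technical. The number of arrays limits the precision.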

Additional observations from a re-analysis of the deposited data

Results flagged for a closer look

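The 3 lines, each set against the same ES pool, differed by limma's F test in 7 genes of the family, with Benjamini-Hochberg adjustment over all probes. The adjusted p was 0.00161 for Klf2, 0.000560 for Klf3, 5.14e-05 for Klf4, 2.09e-05 for Klf5, 0.0255 for Klf6, 0.00328 for Klf7 and 0.00792 for Klf9. Klf2, Klf3, Klf4, Klf5 and Klf9 were lowest in iPS1, Klf7 was highest in iPS1, and Klf6 was lowest in iPS4. Klf4 was below the pool on both iPS1 arrays and above it on all arrays of the other lines. So was the brightest Klf5 probe, while the other 2 Klf5 probes were above the pool on all 6 arrays.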

How the results depend on the processing

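Each log2 ratio pairs the iPS and ES channels of 1 array. Arrays of different lines were not paired, because the labels give no replicate numbers, and those used here follow accession order. Against the pool, the 2 calls became 0 without iPS1, without iPS4 or with the ES pool as 1 sample. They became 4 with the 6 arrays and the line as a random block (correlation 0.106). They became 3, with Klf10 added, under each other background correction or normalization and with the authors' ratios. Averaging a gene's probes or keeping only probes above background gave the same 3. Leaving out 1 array gave 0 (without iPS5 replicate 1) to 3. The 7 F calls became 0 with normexp offset 0, 3 with plain subtraction, 2 with median centring and 3 with no dye term, and 4 to 9 with 1 array left out. The 8 calls of iPS4 against the pool became 5 with offset 0 and 5 with median centring, and 5 to 9 with 1 array left out. For iPS1 against iPS4, the 7 calls became 0 with offset 0 or subtraction, 1 with centring and 2 without the dye term, and 2 to 8 with 1 array left out. For iPS1 against iPS5, the 6 became 3 with offset 0, and 5 to 7 with 1 array left out. For iPS4 against iPS5, the 3 became 0 with offset 0, subtraction or centring and 1 without the dye term, and 1 to 5 with 1 array left out. With 1 array left out, iPS1 against the pool gave 7 to 9 and iPS5 gave 5 to 6. The causes were not tested.

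Called values that reversed were those averaged over a gene's probes, at 0.127 for Klf5 in iPS1 (called there too) and 0.047 for Klf3 in iPS4. Among values not called, that averaging gave -0.12 for Klf6 iPS1 minus iPS5, -0.003 for Klf7 over the lines, -0.007 for Klf12 in iPS1, and for Klf13 -0.015 over the lines, -0.04 in iPS1 and -0.026 in iPS4. Over the lines, leaving out a line or array gave -0.087 (without iPS5) to 0.708 (without iPS1) for Klf4, -0.074 to 0.964 likewise for Klf5, and -0.107 (without iPS1) to 0.125 for Klf7, which median centring put at -0.008. Klf2 in iPS5 was -0.025 without iPS5 replicate 1 and 0.188 without replicate 2. Klf6 iPS4 minus iPS5 was 0.041 with offset 0 and 0.12 with arrays scaled to a common spread. Klf9 iPS4 minus iPS5 was 0.155 with offset 0, 0.13 with subtraction, 0.27 with common spread (called there), 0.018 with the authors' ratios, and -0.068 (without iPS4 replicate 2) to 0.051 (without iPS4 replicate 1) with 1 array left out.

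Arrays of iPS1 and iPS4 alone, an alternative added after seeing the data, lost 0 of 23 called results. The log2 values of Klf2, Klf3, Klf4, Klf5 and Klf6 there equalled those of the main fit. Their adjusted p was lower, although data were removed, as in the fits without an iPS5 array. Keeping every call in this fit is therefore weak support. The lines are single colonies and the pool a single RNA, and Klf12 and Klf13 lie near background, which limits what their ratios can show.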
